A study of Mus musculus with 6 samples.

Results

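The genes described are 9 secreted signals of the liver: the hormones Fgf21, Gdf15, Lect2 and Enho, the activin subunits Inhbe, Inhbc, Inhba and Inhbb, and the activin antagonist Fst. They were taken by gene name from a count table of 54532 genes, and all 9 were found in it. Whole liver RNA was sequenced from male mice in 2 groups, Trem2-deficient mice (Trem2-/-, labelled KO, replicates 4, 5 and 6) and littermate wild-type mice (labelled WT, replicates 1, 2 and 3). Both groups were put on a high-fat diet at 8 weeks of age for 8 weeks, so that no animal on another diet enters the comparison. Trem2 is a lipid-sensing receptor of macrophages. The labels do not give the deleted exons or whether each library came from 1 mouse, and p-values measure the spread between these libraries.

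Hepatokines are proteins that liver cells secrete and that act on other organs. FGF21 signals through an FGF receptor with the co-receptor beta-Klotho and raises fat oxidation and energy expenditure; GDF15 is a stress-induced hormone that lowers food intake through GFRAL, a receptor of the hindbrain; LECT2 is a chemotactic hepatokine linked to insulin resistance of muscle; adropin, the product of Enho, is a peptide of energy balance. Activins are dimers of inhibin beta subunits that bind type II receptors, recruit type I receptors and lead to the phosphorylation of SMAD proteins. The beta-C and beta-E subunits are made mainly by hepatocytes, activin E is known to restrain fat breakdown in adipose tissue through the receptor encoded by Acvr1c, and follistatin, the product of Fst, binds activins and keeps them from their receptors.

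The libraries held between 11591021 and 20399361 counts. Trem2 had 9, 6 and 5 counts in the libraries labelled KO and 7, 26 and 26 counts in those labelled WT (log2 fold change −1.30, SE 0.68, edgeR adjusted p = 0.633). The count of the library labelled WT replicate 1 thus fell among those of the KO-labelled libraries, and each direction below compares libraries by their labels. Mitochondrially encoded genes took between 9.08% and 28% of the counts in KO-labelled libraries and between 8.16% and 12.7% in WT-labelled ones. KO replicate 5 held RNA of other tissues: Acta1, the actin of skeletal muscle, had 593 counts there and at most 3 in any other library, and Adipoq, the adipocyte hormone adiponectin, had 125 counts there and at most 2 elsewhere. All 8 hepatocyte markers examined were measured, with a summed level in CPM (counts per 1000000 of a library's TMM-scaled total) between 81646 and 86876 in KO-labelled and between 79541 and 108872 in WT-labelled livers. Most of that sum was Alb, the albumin gene, and 6 of the 8 markers were fitted lower (median log2 fold change −0.38, 0 called). Of these, Apoa1, an apolipoprotein, had all KO-labelled values below the WT-labelled ones. Summed markers of adipose tissue lay between 100.2 and 140 CPM in KO-labelled and between 20.3 and 98.8 CPM in WT-labelled livers, with 3 of 7 markers tested, all fitted higher, and Adipoq near 0 outside KO replicate 5. The part of these markers in the values below was not tested.

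No gene of the 9 passed the test over all genes, although Fgf21 was about 3-fold higher and Enho about 4-fold lower in the KO-labelled livers. All 9 passed the filter on low counts. At an adjusted p under 0.05 in edgeR's quasi-likelihood test, 0 of 9 were called, where 0.0146% of the 13693 tested genes were. At an unadjusted p under 0.05 there were 2 of 9, Fgf21 and Enho, against 8.58% of all tested genes. DESeq2 called 1 of the 9, Fgf21, and over all 13693 tested genes it called 112 higher and 64 lower. With limma-voom 0 of the 9 were called, and over all tested genes 1 was called higher and 0 lower. The groups did not overlap for 2 of 9, Fgf21 and Lect2, both with the KO-labelled values above, where 13.9% of all tested genes did not overlap and 8.12% had the KO-labelled values above. Fitted values were higher for 6 and lower for 3 of the 9, with a median log2 fold change of 0.46, against −0.01 over all tested genes.

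**Figure D1:**
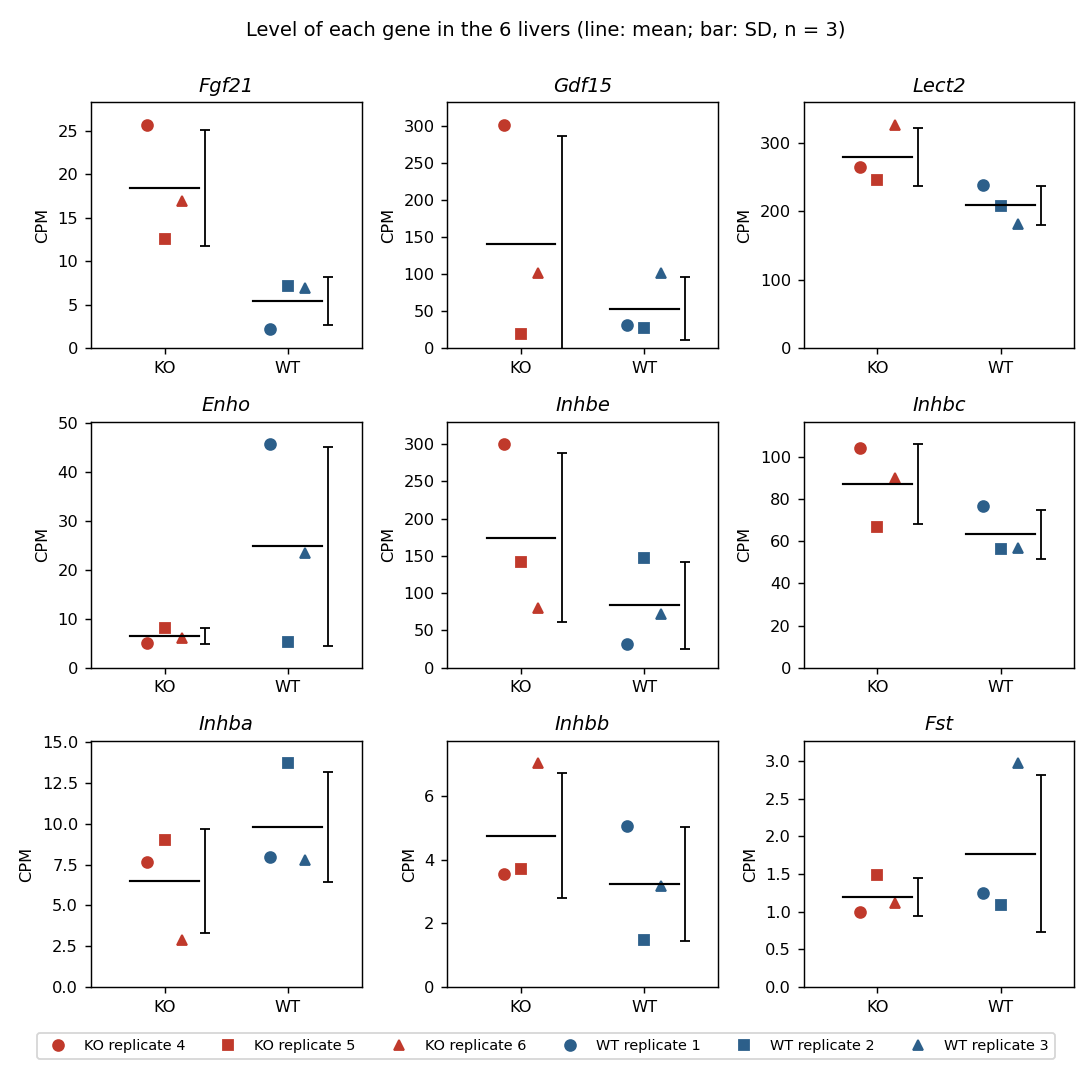
Level of each of the 9 genes in CPM (TMM-scaled, linear axes from 0) in each KO-labelled (left, red) and WT-labelled (right, blue) liver. Points are libraries, horizontal lines are means and vertical bars are SDs of 3 libraries, and the lower end of the KO bar of Gdf15 falls below 0 and is not drawn. Only Fgf21 and Lect2 have all 3 KO-labelled points above all 3 WT-labelled points, and Lect2 only narrowly.

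Fgf21, the fasting and stress hormone, was higher in each KO-labelled liver than in each WT-labelled one, but did not pass the test over all genes. The gene (ENSMUSG00000030827, mm10 chromosome 7, 45613886 to 45615490, minus strand) had 25.7, 12.6 and 16.9 CPM in KO replicates 4, 5 and 6, against 2.24, 7.11 and 6.95 CPM in WT replicates 1, 2 and 3. The lowest KO-labelled liver stood above the highest WT-labelled one, and WT replicate 1 lay well below the other WT-labelled livers. Means were 18.4 ± 6.68 CPM in KO-labelled and 5.43 ± 2.76 CPM in WT-labelled livers (SD, n = 3 each). The log2 fold change was 1.75 (SE 0.46, 95% interval 0.68 to 2.82), a 3.36-fold difference, with an unadjusted p of 0.00561 and an adjusted p of 0.4 in edgeR. DESeq2 gave a log2 fold change of 1.74 with an adjusted p of 0.0353, and limma-voom one of 1.81 with an adjusted p of 0.43. With 1 library left out, the value lay between 1.38 without WT replicate 1 and 1.97 without WT replicate 2. KO replicate 5, which carried muscle and fat RNA, was the lowest KO-labelled library for Fgf21, and without it the value was 1.96 (edgeR adjusted p = 0.197).

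The promoter of Fgf21 is shown because it holds a motif that only 1 other of the hepatokine and activin promoters searched, that of Inhbe, also holds. Sequences are those of RefSeq for build GRCm38.p6, which has the coordinates of mm10. There 7 of the 9 genes had a promoter entry, with 8 entries in all, and Fst and Enho had none. The 250 bases before the start site of Fgf21 (chr7:45615491-45615740, minus strand, 5′ to 3′) carry in capitals the ATF4 and C/EBP composite motif on the opposite strand (TTGCATCA, read there as TGATGCAA), an E-box (CACGTG) and a TATA box (TATAAA), in that order.
Fgf21: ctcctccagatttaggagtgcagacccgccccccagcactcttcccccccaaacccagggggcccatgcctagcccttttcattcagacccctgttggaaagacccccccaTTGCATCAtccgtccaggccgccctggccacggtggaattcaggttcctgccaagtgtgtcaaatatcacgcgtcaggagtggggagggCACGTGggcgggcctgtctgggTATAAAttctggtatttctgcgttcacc
These began 139, 50 and 28 bases upstream of the start site. Of 32851 RefSeq promoters of 300 bases (250 before and 50 after the start), 0.895% held TGATGCAA on either strand, 7.15% held CACGTG and 13.6% held TATAAA or its complement. Among the other promoters the E-box was found in 1 entry of Gdf15, but not in the other entry of that gene, and the TATA box in that of Inhba. The E-box of Gdf15 (chr8:70632173-70632178) began 83 bases upstream of the start of the entry that holds it. It lies inside the gene in the count table, which reaches to 70632456 on the minus strand, and in RefSeq, to 70632470. The TATA box of Inhba (from 16011760) lies before the gene's start in the count table, 16011851, but inside the RefSeq gene, which begins at 16004256. The direct repeat element of PPARs, and the motifs TGACGTCA of cAMP response, GTCTAGAC of SMADs, TTCNNNGAA of STATs and CAAAGTCCA of HNF4 were searched on both strands too, and none of these 5 was found in the windows of the 7 genes. The 5 motifs occurred, in the order named, in 0.04%, 1.79%, 0.213%, 8.3% and 0.475% of all promoters, so that most were rare as exact matches.

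Gdf15, the stress hormone, had the widest spread of the 9 and did not separate the groups. The gene (ENSMUSG00000038508, chromosome 8, 70629393 to 70632456) had 302, 19.2 and 102 CPM in KO replicates 4, 5 and 6, against 32, 26.8 and 102 CPM in WT replicates 1, 2 and 3. KO replicate 4 was the highest of the 6 livers and KO replicate 5 the lowest, so that the KO-labelled values enclosed all WT-labelled ones. The highest liver held 15.7 times the level of the lowest. The log2 fold change of 1.39 (SE 0.90, 95% interval −0.70 to 3.48, edgeR adjusted p = 0.667) rested on KO replicate 4 and was 0.17 without it. The value was 2.25 without WT replicate 3. Without KO replicate 5, which carried muscle and fat RNA, it was 1.91 (SE 0.67, edgeR adjusted p = 0.222). KO replicate 4 also had the largest mitochondrial share of counts, 28%, whose part in the value was not tested.

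Lect2 was the most abundant of the 9 and the steadiest, slightly higher in the KO-labelled livers and not past the test. The gene (ENSMUSG00000021539, chromosome 13, 56542464 to 56548502) had 265, 245 and 326 CPM in KO replicates 4, 5 and 6, against 238, 207 and 181 CPM in WT replicates 1, 2 and 3. The groups did not overlap on this scale, but on the authors' FPKM scale, which uses another library size, they did: KO replicate 5 stood at 258.9 FPKM and WT replicate 1 at 268 FPKM. Within each group the highest liver was 1.33 times (KO-labelled) and 1.31 times (WT-labelled) the lowest. Its log2 fold change was 0.42 (SE 0.22, 95% interval −0.10 to 0.94, edgeR adjusted p = 0.641), which leaves room for a 1.92-fold rise and for none. Lect2 is known as a target of beta-catenin in liver. Its promoter window held the TCF/LEF motif CTTTGAT on the opposite strand, 32 bases upstream of the start of its promoter entry. The distance depends on the start used, as the RefSeq gene ends at 56548559 and the count table's at 56548502. The motif, at 56548564 to 56548570, lies upstream of both. This motif occurred in 3.73% of all promoters and in no other of the 7. The 30 bases around it (chr13:56548552-56548581, minus strand) are shown with the motif in capitals.
Lect2: tgcttctccagATCAAAGgctttggccggc
Pericentral and beta-catenin genes, where Lect2 would belong, were called in 0 of 16 cases and had a median log2 fold change of −0.07. Among them Rhbg, an ammonium transporter, had a log2 fold change of 1.37 (SE 0.29, edgeR adjusted p = 0.365) and Cyp1a2, a drug-metabolising cytochrome P450, one of −1.93 (SE 0.43, edgeR adjusted p = 0.37).

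Enho, the adropin gene, was low in all KO-labelled livers and in 1 of the WT-labelled ones. The gene (ENSMUSG00000028445, chromosome 4, 41638144 to 41640324) had 5.09, 8.2 and 5.98 CPM in KO replicates 4, 5 and 6, against 45.7, 5.19 and 23.5 CPM in WT replicates 1, 2 and 3. WT replicate 2 lay among the KO-labelled livers, while WT replicates 1 and 3 stood far above them. Means were 6.42 ± 1.6 CPM in KO-labelled and 24.8 ± 20.3 CPM in WT-labelled livers (SD, n = 3 each). Enho had a log2 fold change of −1.94 (SE 0.66, 95% interval −3.48 to −0.40), with an unadjusted p of 0.0198 and an adjusted p of 0.499 in edgeR. DESeq2 gave an adjusted p of 0.102. In limma-voom the log2 fold change was −1.46 with an unadjusted p of 0.105 and an adjusted p of 0.667, and in limma on FPKM plus 1 it was −1.40 with an unadjusted p of 0.0729, so that the unadjusted p under 0.05 was lost in both. Without WT replicate 1 the value was −1.16, and without WT replicate 2 it was −2.43 (edgeR adjusted p = 0.835 and 0.134). The gene model of Enho overlaps those of Dnaic1 by 15 bases and Gm12406 by 947 bases on the opposite strand. Those 2 genes had 28 and 7 counts in all 6 libraries together, against 56 or more for Enho in each library.

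Inhbe, which encodes the subunit of activin E, was about 2-fold higher on average in the KO-labelled livers, but its levels overlapped widely. The gene (ENSMUSG00000047492, chromosome 10, 127348857 to 127354411, minus strand) had 300.3, 142 and 80.5 CPM in KO replicates 4, 5 and 6, against 31.3, 147 and 72.3 CPM in WT replicates 1, 2 and 3. KO replicate 4 was the highest liver and WT replicate 1 the lowest, and the other four lay between 72.3 and 147 CPM with both groups mixed. The log2 fold change was 1.06 (SE 0.63, 95% interval −0.39 to 2.51, edgeR adjusted p = 0.657). The value was smaller without either extreme library, at 0.67 without WT replicate 1 and 0.42 without KO replicate 4, and was 1.74 without WT replicate 2. The promoter window of Inhbe held the same ATF4 and C/EBP composite motif as that of Fgf21, in the same orientation, 181 bases upstream of the RefSeq start. The 30 bases around it (chr10:127352011-127352040, minus strand) are shown with the motif in capitals.
Inhbe: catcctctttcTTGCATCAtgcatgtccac
The RefSeq gene ends at 127351848, which is 2563 bases inside the gene model of the count table, so that this stretch lies upstream of the gene in RefSeq and within its first exon in the count table's annotation.

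Inhbc, the neighbouring subunit gene, varied far less than Inhbe. It lies on the same strand of chromosome 10 (ENSMUSG00000025405, 127356322 to 127370431), 1910 bases from Inhbe. It had 105, 66.7 and 90.3 CPM in KO replicates 4, 5 and 6, against 76.9, 56.4 and 56.7 CPM in WT replicates 1, 2 and 3. KO replicates 4 and 6 were the highest, while KO replicate 5 lay below WT replicate 1. Its log2 fold change was 0.46 (SE 0.24, 95% interval −0.10 to 1.03, edgeR adjusted p = 0.638). Over the 6 livers the highest level of Inhbc was 1.85 times the lowest, against 9.58 times for Inhbe. The ratio of Inhbe to Inhbc within a library does not depend on scaling. As log2 of FPKM it averaged −0.70 ± 0.88 in KO-labelled and −1.37 ± 1.35 in WT-labelled livers (SD, n = 3 each). The difference of 0.67 had an exact permutation p = 0.6 (two-sided; 3 against 3 livers cannot give a p below 0.1). Without WT replicate 1, where the ratio was lowest at −2.81, the difference was −0.049. An antisense gene model, Gm47200, spans both genes and had 4 counts in all 6 libraries together.

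Inhba and Inhbb, the subunits of activins A and B, were scarce, and their group differences pointed in opposite directions without passing the test. Inhba (ENSMUSG00000041324, chromosome 13, 16011851 to 16031621) had 7.63, 8.98 and 2.89 CPM in KO replicates 4, 5 and 6, against 7.98, 13.7 and 7.78 CPM in WT replicates 1, 2 and 3. KO replicate 6 stood low and WT replicate 2 high, with the other four close together. Its log2 fold change was −0.59 (SE 0.44, 95% interval −1.61 to 0.43, edgeR adjusted p = 0.686), at −0.24 without KO replicate 6 and −0.28 without WT replicate 2. Inhbb (ENSMUSG00000037035, chromosome 1, 119415465 to 119422248) had 3.54, 3.71 and 7.03 CPM in KO replicates 4, 5 and 6, against 5.05, 1.47 and 3.16 CPM in WT replicates 1, 2 and 3. KO replicate 6 was the highest and WT replicate 2 the lowest, the reverse of their places for Inhba. Its log2 fold change was 0.56 (SE 0.50, 95% interval −0.59 to 1.71, edgeR adjusted p = 0.724), and it was 0.16 without KO replicate 6, 0.21 without WT replicate 2 and 1.02 without WT replicate 1.

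Fst, whose product neutralises activins, was the least abundant of the 9. The gene (ENSMUSG00000021765, chromosome 13, 114452290 to 114458951) had 11, 32 and 17 counts in KO replicates 4, 5 and 6, against 20, 17 and 61 counts in WT replicates 1, 2 and 3. These are 0.999, 1.48 and 1.12 CPM in the KO-labelled livers, against 1.25, 1.09 and 2.97 CPM in the WT-labelled ones. WT replicate 3 stood above the other five, whose values lay close together. Counting error alone gave exact 95% Poisson intervals of 0.499 to 1.79 CPM for KO replicate 4 and 2.27 to 3.81 CPM for WT replicate 3. The log2 fold change of −0.55 (SE 0.50, 95% interval −1.72 to 0.61, edgeR adjusted p = 0.728) was 0.016 without WT replicate 3. As a log2 ratio of FPKM to the sum of Inhba and Inhbb, Fst averaged −3.05 ± 0.21 in KO-labelled and −2.72 ± 0.98 in WT-labelled livers (SD, n = 3 each). The difference of −0.33 had p = 0.9 in the same exact permutation test and was 0.23 without WT replicate 3.

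**Figure D2:**
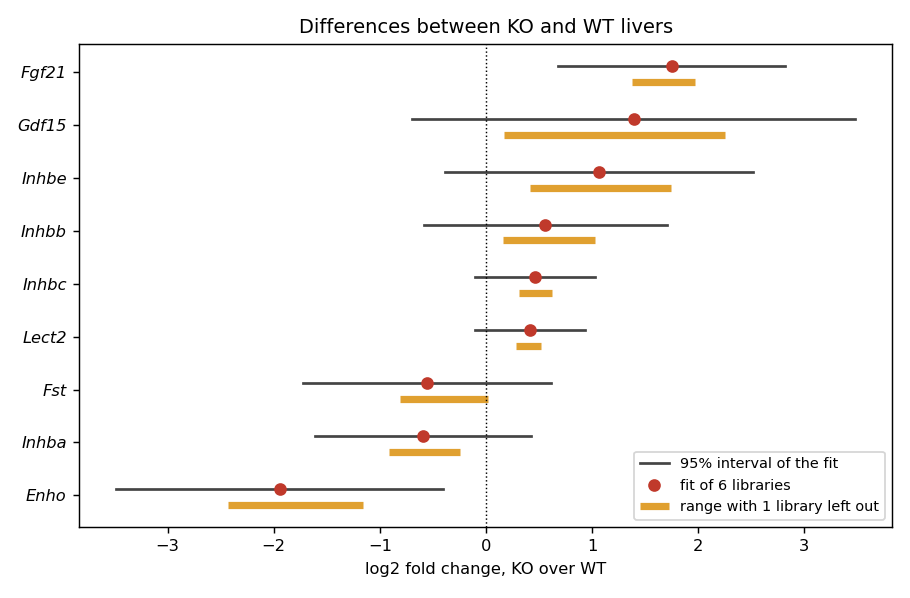
Log2 fold change of KO-labelled over WT-labelled livers for the 9 genes (red points, edgeR), with its 95% interval (grey line) and the range of the value when 1 of the 6 libraries is left out (orange bar). The intervals of Fgf21 (0.68 to 2.82) and Enho (−3.48 to −0.40) exclude 0 before adjustment for the 13693 genes tested, the other 7 include it, and only the range of Fst crosses 0 with a library left out.

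Per length, the 9 genes spanned nearly the whole range of liver expression. On the authors' FPKM scale, averaged over the 6 livers, Lect2 stood at 263 FPKM, above 98.5% of the tested genes, and Fst at 0.321 FPKM, above 9.91% of them. Between them came Gdf15 at 52, Inhbc at 40.2, Inhbe at 23.9, Enho at 12.4, Fgf21 at 12.4, Inhba at 1.27 and Inhbb at 0.934 FPKM. The ranges over livers of neighbours in this order overlapped except between Lect2 and Gdf15 and between Fgf21 and Inhba. Gdf15 was above Inhbc in 3 of 6 livers, and Enho above Fgf21 in 2 of 6. The place of Inhbe may depend on the gene model: the table's length is 5319 bases, while the whole RefSeq gene spans 2447 bases. The same counts divided by that span would give a mean of 51.9 FPKM. That is no level for the RefSeq model, as reads outside it were kept and the span was not limited to exons. The place of Fst may depend on the gene model as well, since its principal transcript has 1113 bases where the table counts 4589.

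Among themselves the 9 genes did not move as a block over the 6 livers. The measure used was the root mean square difference of log2(CPM + 0.5), each gene centred on its mean of the 6 libraries. A value of 0 means the same pattern on this scale, where the offset of 0.5 lessens changes of scarce genes. Inhbc and Lect2, both of which varied little, were closest at 0.19, and Fgf21 and Enho farthest apart at 2.11. Fgf21 and Inhbe differed by 0.61, less than Inhbe did from its neighbour Inhbc at 0.98. WT replicate 1 was the lowest liver for both Fgf21 and Inhbe and the highest for Enho, and KO replicate 4 was the highest for Fgf21, Inhbe, Inhbc and Gdf15 and the lowest for Enho.

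**Figure D3:**
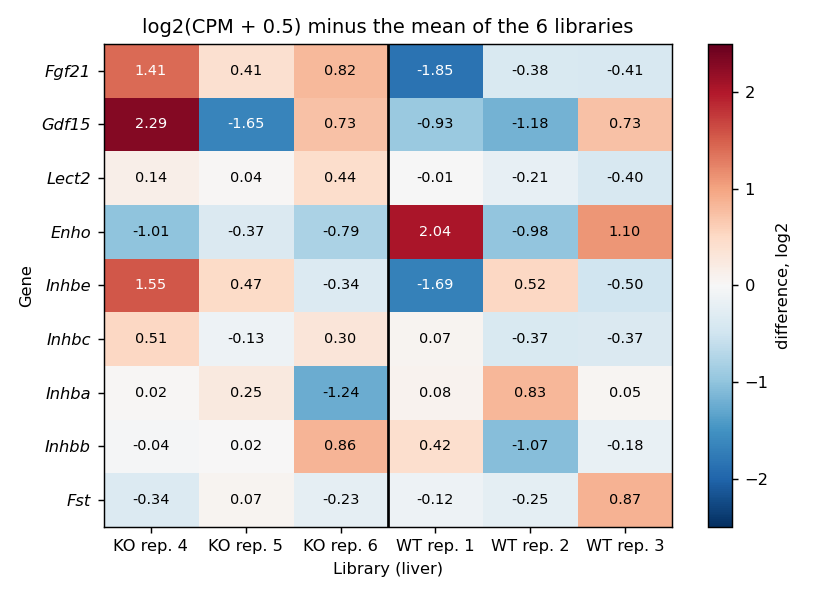
Level of each of the 9 genes (rows) in each library (columns, KO-labelled left of the line, WT-labelled right), as log2(CPM + 0.5) minus the gene's mean over the 6 libraries, with the values printed in the cells. KO replicate 4 is 1.41 above the mean for Fgf21 and 1.55 for Inhbe, WT replicate 1 is −1.85 and −1.69 for the same genes, and Enho runs the other way at −1.01 and 2.04.

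The genes most like each of the 9 in this measure were sought among the other protein-coding genes of at least 1 CPM in a pool of 11535. Fgf21 was nearest to Mki67, a marker of dividing cells (difference 0.19), and Tor3a, of the torsin family (0.20), against an SD of 1.14 for Fgf21 itself. Inhbe was nearest to Nupr1, a stress-induced transcription regulator and ATF4 target (0.18), and Axin2, a beta-catenin target (0.26). Enho was nearest to C6, a complement component, and Apom, the carrier of sphingosine phosphate on lipoproteins, both at 0.44. Gdf15 was nearest to Nr4a1, an immediate early nuclear receptor (0.47), and Rgs1, a regulator of G-protein signalling (0.50), against an SD of 1.5 for Gdf15 itself. For the less variable genes the nearest were Vps41 and Cblc for Lect2 (both 0.05), Fcgr2b and Fam107b for Inhbc (0.08 and 0.09), Rasd1 and Angptl4 for Inhbb (0.09 and 0.19), Chpf2 and Bhlhe40 for Inhba (0.16 and 0.19), and Klk1b4 and Fuom for Fst (both 0.14). These likenesses over 6 libraries are a description, with no test.

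No receptor of these signals passed the test in liver. Of 9 tested activin and related receptors 2 were fitted higher and 7 lower, with a median log2 fold change of −0.12 and 0 called. The type II receptors Acvr2b and Acvr2a, which bind activins, had the smallest p of the list and did not overlap between groups, where 5.73% of all tested genes had the KO-labelled values below. Acvr2b had 1.54, 1.99 and 1.9 CPM in KO replicates 4, 5 and 6, against 3.24, 4.42 and 5.84 CPM in WT replicates 1, 2 and 3 (log2 fold change −1.30, SE 0.35, edgeR adjusted p = 0.4). Acvr2a had 7.18, 10.8 and 7.03 CPM in the KO-labelled and 16, 11.1 and 11.9 CPM in the WT-labelled livers (log2 fold change −0.64, SE 0.27, edgeR adjusted p = 0.571). Acvr1c, the receptor of activin E in fat, had 0, 7 and 0 counts in KO-labelled and 1, 0 and 1 counts in WT-labelled livers and was not tested. The 7 counts lay in KO replicate 5, the library with fat RNA.

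Among receptors of FGF21, GDF15 and LECT2, 7 of 12 listed genes were tested and 0 called. Klb, which encodes the co-receptor beta-Klotho, stood at 5.72 ± 1.8 CPM in KO-labelled and 7.92 ± 3.59 CPM in WT-labelled livers (SD, n = 3 each), a log2 fold change of −0.46 (SE 0.40, edgeR adjusted p = 0.72). Tie1, an endothelial receptor that LECT2 binds, had a log2 fold change of 0.64 (SE 0.20, edgeR adjusted p = 0.437). The 7 sinusoidal endothelial markers tested, all fitted higher, summed to 145 to 162 CPM in KO-labelled and 103 to 117 CPM in WT-labelled livers. In bulk RNA more cells of a type and more RNA per cell cannot be told apart. Gfral had 0 counts in all 6 libraries.

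Antagonists other than Fst, SMADs, SMAD targets and related ligands gave 0 calls as well. Of 5 tested antagonists and modulators, Fstl1, a secreted follistatin-like protein of mesenchymal cells, had 8.54, 16.3 and 4.2 CPM in KO replicates 4, 5 and 6, against 3.18, 3.39 and 2.67 CPM in WT replicates 1, 2 and 3 (log2 fold change 1.66, SE 0.47, edgeR adjusted p = 0.407). Markers of stellate cells and fibroblasts summed to 229 to 495 CPM in KO-labelled and 208 to 221 CPM in WT-labelled livers, and 7 of 11 were fitted higher; their part in the value of Fstl1 was not tested. Of 11 SMADs and partners 8 were fitted lower (median −0.19), with Smad9 at −1.36 (SE 0.39) and Skil, a SMAD repressor, at −0.75 (SE 0.31). Of 10 SMAD targets 6 were fitted higher (median 0.04), with Pmepa1, a feedback inhibitor of TGF-beta signalling, at 1.35 (SE 0.35) and Hamp, the iron hormone hepcidin, at −0.64 (SE 0.25). Of 11 related ligands 7 were fitted higher (median 0.26), with Tgfb1 at 0.65 (SE 0.22) and Tgfb3 at 1.21 (SE 0.44). The edgeR adjusted p of these 6 genes lay between 0.4 and 0.557.

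**Figure D4:**
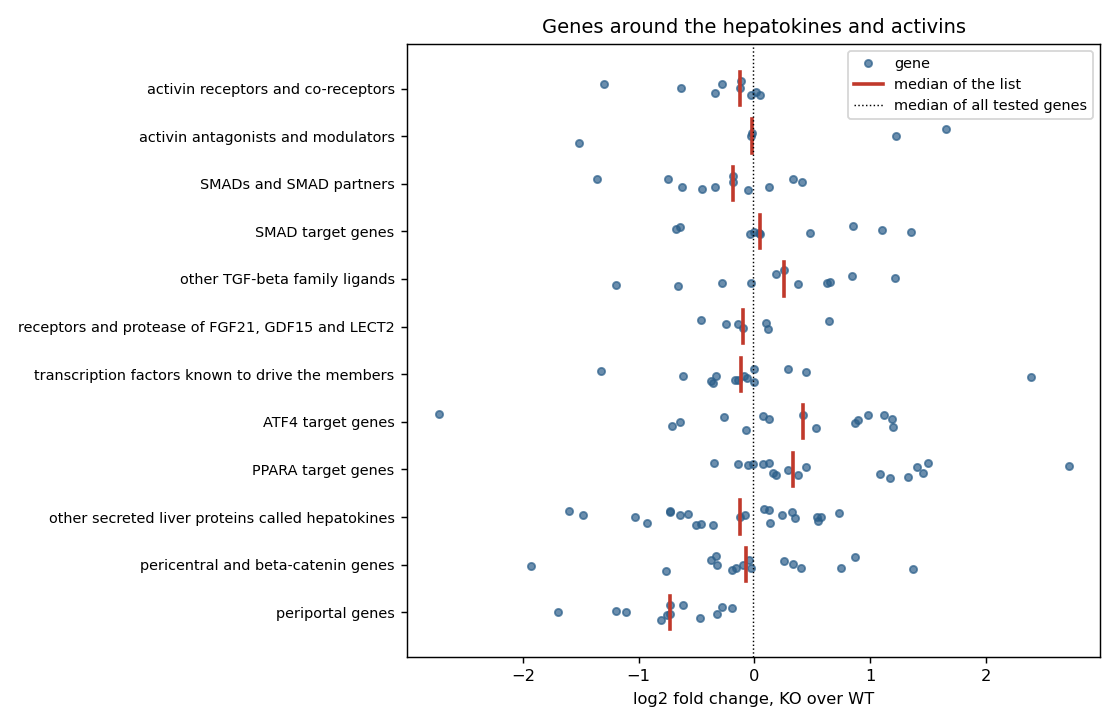
Log2 fold change of KO-labelled over WT-labelled livers for each tested gene (blue points) of 12 lists around the hepatokines and activins, with the median of each list (red bar) and of all tested genes (dotted line, −0.01). The medians run from −0.73 for periportal genes to 0.42 for ATF4 targets, and single genes of most lists lie on both sides of 0.

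Of the inputs known to drive the members, PPARA targets were mostly fitted higher, with 0 called, and the transcription factors gave 0 calls as well. Of 18 PPARA targets 14 were fitted higher (median 0.33), 7 of them at an unadjusted p under 0.05, against 5.37% of all tested genes higher and 3.21% lower at that level. Cidec, a lipid droplet protein, had a log2 fold change of 2.72 (SE 0.43, edgeR adjusted p = 0.277) and Pex11a, a peroxisome division factor, one of 1.09 (SE 0.25, edgeR adjusted p = 0.37). Ppara itself stood at 34.1 ± 1.68 CPM in KO-labelled and 34.2 ± 3.92 CPM in WT-labelled livers (SD, n = 3 each). Of 15 tested ATF4 targets 10 were fitted higher (median 0.42), 1 in each direction at an unadjusted p under 0.05. Sesn2, a stress-induced regulator of nutrient signalling, had a log2 fold change of 1.12 (SE 0.41), while Asns, asparagine synthetase, had one of −2.73 (SE 0.93), with edgeR adjusted p of 0.524 and 0.5. Asns had 0.182, 1.07 and 0.328 CPM in KO replicates 4, 5 and 6, against 1.5, 1.22 and 8.46 CPM in WT replicates 1, 2 and 3. Atf4 was nearly equal between groups (log2 fold change −0.01, SE 0.24, edgeR adjusted p = 0.993). Of 14 transcription factors 11 were fitted lower (median −0.11), with Xbp1, of the unfolded protein response, at −1.32 (SE 0.36, edgeR adjusted p = 0.4) and Atf3, a stress-induced factor, at 2.39 (SE 1.46, edgeR adjusted p = 0.662). Atf3 had 119 CPM in KO replicate 4, the liver with the most Gdf15, and between 0.96 and 18.5 CPM in the other five.

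Other secreted liver proteins, 23 tested, were fitted higher in 10 and lower in 13 cases (median −0.12), with 0 called and 2 lower at an unadjusted p under 0.05. These were Igfbp2, which binds insulin-like growth factors in plasma, at a log2 fold change of −1.60 (SE 0.38, edgeR adjusted p = 0.383), and Hamp, named among the SMAD targets. Periportal genes, 12 tested, were all fitted lower (median −0.73) with 0 called, where 6963 of the 13693 tested genes were fitted lower. At an unadjusted p under 0.05 there were 3 of 12 lower, Cdh1, Cps1 and Arg1, against 3.21% of all tested genes. Cps1, the first enzyme of the urea cycle, had a log2 fold change of −1.70 (SE 0.60) and Cdh1, E-cadherin, one of −1.20 (SE 0.40), with edgeR adjusted p of 0.513 and 0.469. Cps1 stood at 198, 724 and 363 CPM in KO replicates 4, 5 and 6, against 2198, 574 and 1408 CPM in WT replicates 1, 2 and 3. As with Enho, WT replicate 2 lay inside the KO-labelled range and the other WT-labelled livers above it.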

How the data were processed

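The authors' deposited table holds whole read counts per gene, 1 column per library. The authors' deposited FPKM table covers the same genes and served for levels per length, for ratios and as an alternative; its library sizes follow size factors of the DESeq2 type (ratio to them 1) and not the column totals. HISAT2 2.0.5 and the build mm10, and also DESeq2 1.16.1 and featureCounts 1.5.0-p3, are listed in the submitters' processing notes without roles or settings. Whether counting used strand was not stated in these sources. Libraries were made with a TruSeq kit from Trizol-extracted RNA, per the labels' protocols. Groups came from sample titles.

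The counts went into edgeR 4.0.16 under R 4.3.3 (TMM scaling, filterByExpr, quasi-likelihood test, Benjamini-Hochberg adjustment over 13693 genes, threshold 0.05); each SE was obtained by dividing the log2 fold change by the root of F, and 95% intervals use the test's degrees of freedom. CPM are TMM-scaled. The common biological coefficient of variation was 34.7%. No 2 libraries agreed within sampling noise (lowest chi-square per degree of freedom 42.3). Poisson intervals cover counting error only. The test was checked on simulated counts with known changes. It called 2 of 50 genes changed 2-fold, 27 of 50 changed 4-fold, 42 of 50 changed 8-fold and 41 of 50 changed 16-fold. Most 2-fold changes were thus missed there. The simulation gave 116 calls, 4 of them false, against 2 calls in the data. As the adjusted threshold loosens with more calls, these shares may be too high for the data.

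The 9 genes and the pathway and marker lists were chosen with earlier results of these data known. By rule, each pathway list is named by its called genes or, with none, by the 2 with the smallest p, and each of the 9 by its 2 most like genes. A result for 1 gene this rule names is not reported here. Other genes given (Ppara, Atf4, Gfral, Acvr1c, Adipoq, Acta1, Alb, Apoa1 and Arg1), the motifs and the closing values were chosen after values were seen. Alternatives were DESeq2 1.42.0, limma-voom (limma 3.58.1), other scalings and filters, limma on log2 FPKM plus 1 or plus 0.1, which understates changes of low genes, and each library left out.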

Additional observations from a re-analysis of the deposited data

How the results depend on the processing

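Over 16 alternatives, the log2 fold changes of the 9 genes kept their direction in 143 of 144 values; the exception was Fst, which ranged from −0.81 to 0.016 with 1 library left out, the highest without WT replicate 3. DESeq2 called 1 of the 9 (Fgf21, log2 fold change 1.74, adjusted p = 0.0353), and the lowest adjusted p of Fgf21 in any other alternative was 0.0677, without a count filter. Genes called higher numbered 112 with DESeq2, 1 with limma-voom, 1 with library size alone, 39 without a filter and 0 to 1 with 1 library left out, against 2; genes called lower numbered 64 with DESeq2 and 22 without a filter, against 0. In the pathway lists, DESeq2 called 1 SMAD target (Pmepa1), 1 transcription factor (Xbp1), 3 PPARA targets (Cidec, Pex11a and Crat), 1 other hepatokine (Igfbp2) and 2 pericentral genes (Cyp1a2 and Rhbg); without a filter 1 PPARA target (Cidec) and 1 pericentral gene (Cyp1a2) were called; the cause was not tested. The group difference of the Inhbe to Inhbc ratio ranged from −0.049 to 1.29 with 1 library left out, and that of Fst to Inhba plus Inhbb from −0.67 to 0.23. No paired analysis was made, because the replicate numbers do not pair the libraries and the labels do not give the litter of each. Depth limits Fst most, with as few as 11 counts.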

Other observations

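Genes that respond to feeding differed widely between livers of the same group; those given here were chosen after their values were seen. Angptl8, which insulin and feeding raise, had 468, 44.4 and 26.1 CPM in KO replicates 4, 5 and 6, against 13.8, 297 and 51.2 CPM in WT replicates 1, 2 and 3. Igfbp1, which insulin lowers, had 60, 65 and 259.9 CPM in the KO-labelled livers, against 876, 5.63 and 192 CPM in the WT-labelled ones. Pdk4, a kinase that fasting raises, had 42, 16 and 151 CPM in the KO-labelled livers, against 228, 2.88 and 35.1 CPM in the WT-labelled ones. WT replicate 1 was thus the highest liver for Igfbp1 and Pdk4 and the lowest for Angptl8, as it was the lowest for Inhbe and Fgf21 and the highest for Enho. WT replicate 2 was the lowest for Igfbp1 and Pdk4 and second for Angptl8 behind KO replicate 4, and KO replicate 4 and WT replicate 2 were also the highest livers for Inhbe. The labels do not give when the livers were taken relative to feeding, and the part of feeding in these values was not tested.

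Selenop, the selenium carrier of plasma and a hepatokine, split the livers across the labels: it had 192, 3508 and 425 CPM in KO replicates 4, 5 and 6, against 5209, 484 and 2744 CPM in WT replicates 1, 2 and 3. KO replicates 4 and 6 and WT replicate 2 lay between 192 and 484 CPM and the other three at or above 2744 CPM. Its log2 fold change was −1.03 with an edgeR adjusted p of 0.764. The split was not seen in Selenop alone. KO replicates 4 and 6 and WT replicate 2 also had the largest mitochondrial shares of counts, at 28%, 19.8% and 12.7%. The remaining livers had between 8.16% and 10.2%, and the part of this in the values of Selenop was not tested.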
